A study of Mus musculus with 10 samples.

Results

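Cytosolic ribosomal protein genes encode the proteins that, with ribosomal RNA, build the large (60S, Rpl genes) and small (40S, Rps genes) subunits of the ribosome in the cytoplasm. The proteins are made in matched amounts, and their messages typically begin with a pyrimidine-rich stretch (a terminal oligopyrimidine, or TOP, tract) through which mTORC1, a growth-sensing kinase complex, controls their translation. Each gene has usually left many processed pseudogenes in the mouse genome, which are intronless copies of the message inserted elsewhere. The members were the rows of the deposited count table whose Ensembl ID belongs, on GRCm39, to a protein-coding gene with a symbol of Rpl or Rps and a digit, or Rpsa, Rplp0, Rplp1 or Rplp2, without the Rps6k kinases and without symbols holding -ps. This rule matched 90 annotated genes, of which 88 were among the 29883 rows (52 Rpl and 36 Rps symbols), and it used no measured value. Rpl10l and Rpl27rt were not among the rows and were not analysed here. All 88 members were tested, since no filter on low counts was applied. The symbol rule also takes in Rps19bp1, which encodes a protein that binds Rps19 and is not itself a ribosomal protein, and paralogs or retrogenes such as Rpl22l1, Rpl35rt and Rps23rg1.

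The tissue was the nucleus accumbens (NAc) of the ventral striatum, taken from 5 C57BL/6J (B6) and 5 DBA/2J (D2) mice, which are inbred strains that differ in their responses to ethanol. All 10 mice were males of 9 weeks that had not received ethanol, and each gave 1 poly-A library. The sources used here name no transgene, engineered deletion or treatment for these mice. Natural variants of the 2 inbred strains were not examined here. Both strains were aligned to GRCm39, which is the genome of B6, so that a D2 read meets every sequence difference between the strains and a B6 read does not. The question was which of these genes differ in mRNA level between B6 and D2.

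Between 96977262 and 116776714 reads per mouse were counted on genes. The 10 marker genes of striatal neurons were detected in every library, and 6 of them, Drd2 and Penk included, were lower in D2, as were 4 of 6 oligodendrocyte markers. The 6 cortex neuron markers did not pass the test and had summed scaled counts from 22137 to 60232 in D2. The mitochondrially encoded genes held 4.85% ± 0.155 (SD, n = 5) of the B6 counts, and in D2 they held 3.94% ± 0.0654 (SD, n = 5). Of the other marker lists, 3 of 5 blood, 3 of 5 astrocyte, 2 of 6 microglia, 2 of 4 mural cell, 1 of 6 choroid plexus and 1 of 3 fibroblast genes were called in either direction, while the ependyma and endothelium genes did not pass the test. Over all 29883 rows, 8.5% were called higher and 9.83% lower. The part of the marker and mitochondrial differences in the results on ribosomal protein genes was not tested. In bulk tissue, fewer cells of a type and less RNA per cell cannot be told apart. One library stood apart: over the 41 rows with a D2 mean above 200 scaled counts and a log2 difference above 5, B6 replicate 4 held a median of 6.21% of the D2 level, whereas the other 4 B6 libraries held 0.708% to 1.73%. Separately, B6 replicates 3 and 5 were close to each other (mean chi-square of their counts 4.89 per gene) and far from B6 replicates 1, 2 and 4 (85.5 to 119), which lay 19.1 to 23.8 from each other, and the D2 mice lay 17.5 to 51.2 apart. The summed cortex neuron markers were 95986 and 97587 in B6 replicates 3 and 5 and 8473, 7729 and 16559 in replicates 1, 2 and 4. The causes were not tested, and the main counts are given with and without these libraries.

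Before the values, the sequences of 5 members are shown beside their copies, since copies of several lower members had higher counts in D2. A copy was a row annotated as a pseudogene, or with -ps in its symbol, whose transcript matched a member at 90% identity or more over at least 150 bases and at least 50% of the copy. By this definition, made after the data had been seen, 75 of the 88 members had 441 copies among the rows. Each pair below is a stretch of 60 bases, within 1 coding exon of the member, chosen to hold the most differences between the member and its copy. The bases are read 5′ to 3′ on the strand of the gene from the GRCm39 genome, which is that of B6, and capitals mark the bases that differ. Rpsa is read from coding exon 2 at chr9:119958250-119958309 (plus strand) and Rpsa-ps10 at chr3:149778961-149779020 (minus strand). Rplp0 is read from coding exon 3 at chr5:115699227-115699286 (plus strand) and Gm8730 at chr8:103591984-103592043 (minus strand). Rps18 is read from coding exon 4 at chr17:34171207-34171266 (minus strand) and Rps18-ps6 at chr13:97896726-97896785 (minus strand). Rpl3 is read from coding exon 2 at chr15:79966724-79966783 (minus strand) and Rpl3-ps1 at chrX:13068814-13068873 (plus strand). Rps2 is read from coding exon 4 at chr17:24940597-24940656 (plus strand) and Gm12109 at chr11:32135534-32135593 (plus strand).
Rpsa: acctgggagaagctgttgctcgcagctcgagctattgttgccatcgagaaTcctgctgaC
Rpsa-ps10: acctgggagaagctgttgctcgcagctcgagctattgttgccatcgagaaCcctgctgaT
Rplp0: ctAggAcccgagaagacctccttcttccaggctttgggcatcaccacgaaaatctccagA
Gm8730: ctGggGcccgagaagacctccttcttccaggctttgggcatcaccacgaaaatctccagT
Rps18: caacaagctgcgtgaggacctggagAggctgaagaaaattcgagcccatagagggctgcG
Rps18-ps6: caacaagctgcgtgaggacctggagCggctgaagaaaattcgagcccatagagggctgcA
Rpl3: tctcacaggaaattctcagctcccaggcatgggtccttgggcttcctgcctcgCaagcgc
Rpl3-ps1: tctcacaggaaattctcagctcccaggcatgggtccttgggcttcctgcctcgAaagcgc
Rps2: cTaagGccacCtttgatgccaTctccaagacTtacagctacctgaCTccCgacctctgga
Gm12109: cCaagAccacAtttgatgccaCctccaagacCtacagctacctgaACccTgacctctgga
Over the whole coding sequence, Rpl3 and Rpl3-ps1 differed at 2 of 1209 bases, Rpsa and Rpsa-ps10 at 6 of 885, and Rps18 and Rps18-ps6 at 4 of 456. Rplp0 and Gm8730 differed at 12 of 951 aligned bases. Gm12109, the copy of Rps2 with the highest D2 count among those called higher, differed from it at 34 of 689 aligned bases. Of the pairs not printed, Rpl29 and Gm8210 differed at 3 of 480 bases, and Rpl34 and Rpl34-ps1 at 2 of 351. Copies of these 2 members gained only 6.3% and 3.08% of the scaled counts that the member lost. The 5 printed pairs were chosen after the values were seen. Whether likeness goes with the counts on copies was not tested.

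Most ribosomal protein genes had similar levels in both strains, while 13 were lower in D2, 4 of them by more than 2-fold, and 9 were slightly higher. Of the 88 members, 9 (10.2%) were higher and 13 (14.8%) lower in D2 at an adjusted p of 0.05 (edgeR quasi-likelihood test, TMM normalization, Benjamini-Hochberg adjustment over all rows, two-sided). Of all 29883 rows, 8.5% were called higher and 9.83% lower, so that the share of members called higher was near that of all rows. Of the 10641 rows with a mean of at least 1000 scaled counts, which include 79 of the members, 9.83% were higher and 12.5% lower. Every D2 mouse lay above every B6 mouse for 6 members and below for 13, against 7.39% and 8.63% of all rows. The median log2 fold change (D2 minus B6) was 0.025 for the members and 0.0036 for all rows. The lower members spanned −0.12 to −2.11 on the log2 scale, whereas the higher ones spanned 0.14 to 0.23. The 57 members that were not called and had a mean above 1000 scaled counts had log2 fold changes between −0.10 and 0.17, and their intervals of 2 standard errors reached from −0.22 to 0.29. The count of higher members depended on the mice: without D2 replicate 4, 14 members were called higher and 19 had every D2 mouse above every B6 mouse, and without 1 of the other mice between 4 and 9 were called higher. The count of lower members was 13 or 14 whichever mouse was left out. Without B6 replicate 4, the library that stood apart, 9 members were higher and 13 lower. Without B6 replicates 3 and 5 (left out together after the data were seen), 4 members were higher (Rps27, Rpl10, Rpl23a and Rps25) and 14 lower, and 38 copies were higher and 19 lower.

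**Figure D1:**
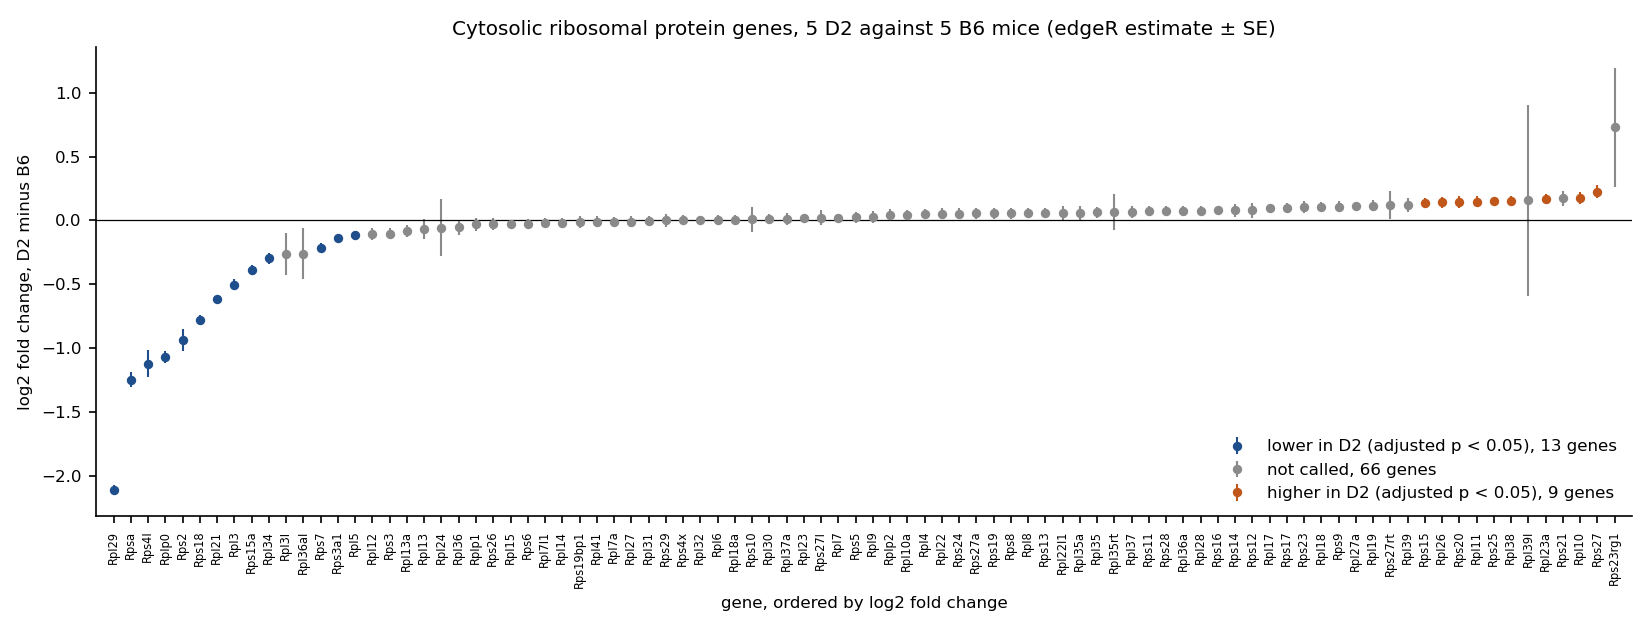
Log2 fold change (D2 minus B6, y axis) with its standard error for the 88 members, ordered by the estimate (x axis), with blue for the 13 called lower, orange for the 9 called higher and grey for the 66 not called. The called lower genes reach −2.11 (Rpl29), the called higher genes end at 0.23 (Rps27), and the widest bars belong to Rpl39l and Rps23rg1, which have a few counts each.

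Rpl29, a large subunit protein, showed the largest fold change. Its scaled counts (counts brought to a common library size by TMM factors) were 9649, 10640.4, 9896, 10176 and 10215 in B6 replicates 1 to 5 and 2479.9, 2359, 2333, 2220.3 and 2313 in D2 replicates 1 to 5. The mean fell from 10115 ± 372 (SD, n = 5) to 2341 ± 93.6 (SD, n = 5), and the groups were far apart. The log2 fold change was −2.11 (SE 0.0391, adjusted p = 1.5e-11, edgeR). The gene lies at chromosome 9, 106306586 to 106311297 (GRCm39, plus strand), and up to 304 bases of its exons overlap an exon of Acy1 on the opposite strand. The authors name a stranded library kit, but whether the counting used the strand is not stated. Reads of overlapping genes on opposite strands therefore cannot be told apart in these counts, and 50 members had such an overlap.

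Rpsa, the laminin receptor protein of the small subunit, had the largest loss in counts. It held 37872, 40679, 33446, 37016 and 34834 scaled counts in the B6 mice and 15469, 16758, 15665, 13896 and 15612 in the D2 mice. Every B6 mouse was far above every D2 mouse. The log2 fold change was −1.25 (SE 0.0594, adjusted p = 1.4e-08, edgeR), with means of 36769 ± 2799.8 (SD, n = 5) and 15480.2 ± 1024 (SD, n = 5).

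Rplp0 encodes the base of the stalk, the flexible arm of the large subunit that recruits elongation factors. Its scaled counts were 14098, 15514, 14752, 14902 and 15743 in B6 and 7097, 7702, 6966, 6649 and 7336 in D2. The mice did not overlap, and the log2 fold change was −1.07 (SE 0.0443, adjusted p = 4.3e-09, edgeR). The other stalk genes did not pass the test. Rplp1 had a log2 fold change of −0.03, Rplp2 of 0.05 and Rpl12, which binds beside the stalk, of −0.10. So Rplp0 was the 1 called gene of the 4 in the stalk (25%), beside 8.5% higher and 9.83% lower over all rows. Without B6 replicate 3, Rpl12 was also called lower (−0.14, adjusted p = 0.023, edgeR).

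Rps2, a small subunit protein near the path of the message, had scaled counts of 20804, 25549.7, 20879, 25075 and 20494 in B6 and 10280.03, 10738, 11759, 12630.2 and 13436 in D2. Its spread within each strain was wider than that of most members (11.2% and 11.1% of the mean, against medians of 4.08% and 4.52% over the 79 members with a mean above 1000), but the strains did not overlap. The log2 fold change was −0.94 (SE 0.0858, adjusted p = 5.1e-06, edgeR).

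Rps18, in the head of the small subunit, held 9364, 10235, 9749.6, 10055 and 9969.8 in B6 and 5618, 6144, 5823, 5433 and 5795 in D2. Its log2 fold change was −0.78 (SE 0.0387, adjusted p = 2.1e-08, edgeR). Of the 14 members of the head, 3 were higher (Rps15, Rps20 and Rps25) and Rps18 was the 1 that was lower. That is 28.6% called in either direction, beside 8.5% higher and 9.83% lower over all rows. The list had a median log2 fold change of 0.065, near the 0.056 of all 36 Rps symbols, beside 0.0036 over all rows.

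Rpl21 and Rpl3 are large subunit proteins, and Rpl3 lies near the catalytic centre. Rpl21 held 21581, 21369, 20579, 21178 and 20749 in B6 and 13726, 14719.8, 13763, 13205 and 13328 in D2, a log2 fold change of −0.62 (SE 0.0351, adjusted p = 7e-08, edgeR). Rpl3 had the highest mean count of all members in B6 (not per length), with 45344, 46703, 41194, 47377 and 44625 in B6 and 31645, 32944, 31700.2, 30033 and 32481 in D2. Its log2 fold change was −0.50 (SE 0.043, adjusted p = 2.7e-06, edgeR). In neither gene did the strains overlap.

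Of the other genes that were lower in D2, Rps4l is described with the paralogs, and 5 changed less than those above. Rps15a fell by 0.39, Rpl34 by 0.30, Rps7 by 0.21, Rps3a1 by 0.14 and Rpl5 by 0.12 on the log2 scale, each with every D2 mouse below every B6 mouse. Rps15a went from 11721 ± 597 (SD, n = 5) to 8967 ± 310.3 (SD, n = 5) and Rpl5 from 18883 ± 359 (SD, n = 5) to 17406 ± 473 (SD, n = 5). Rpl5 and Rpl11 carry the 5S RNA into the large subunit, and both are known to bind Mdm2 when ribosome assembly fails. Rpl5 was lower while Rpl11 was higher, at 14359.6, 14437, 12758, 14386 and 13715 in B6 and 15712, 16261, 15471, 14352 and 15284 in D2, a log2 fold change of 0.15 (SE 0.0437, adjusted p = 0.0348, edgeR). For Rpl11 the lowest D2 mouse, replicate 4, lay below the 3 highest B6 mice.

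Rps4l, a gene like Rps4x, was the 1 called gene among the 8 paralogs and like genes (12.5%, beside 8.5% higher and 9.83% lower over all rows). It held 1437, 1471, 1241, 1387 and 1402 in B6 and 507, 737, 558, 616 and 768 in D2, without overlap, and its log2 fold change was −1.12 (SE 0.107, adjusted p = 7.3e-06, edgeR). Rps4l was also the 1 lower member without any near-identical copy. The other paralogs did not pass the test. Rpl22l1 had a log2 fold change of 0.06, Rpl7l1 of −0.02, Rps27l of 0.02 and Rps27rt of 0.12. Rpl3l (76.3 ± 15.2 (SD, n = 5) in B6), Rpl36al (27.6 ± 3.86 (SD, n = 5)) and Rpl39l (4.54 ± 3.98 (SD, n = 5)) had few counts, as had the retrogene Rps23rg1 (3.74 ± 2.12 (SD, n = 5)), and their standard errors were 0.167, 0.199, 0.749 and 0.464 on the log2 scale. At these few counts, small differences were not detectable. Rps19bp1 had a log2 fold change of −0.01.

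**Figure D2:**
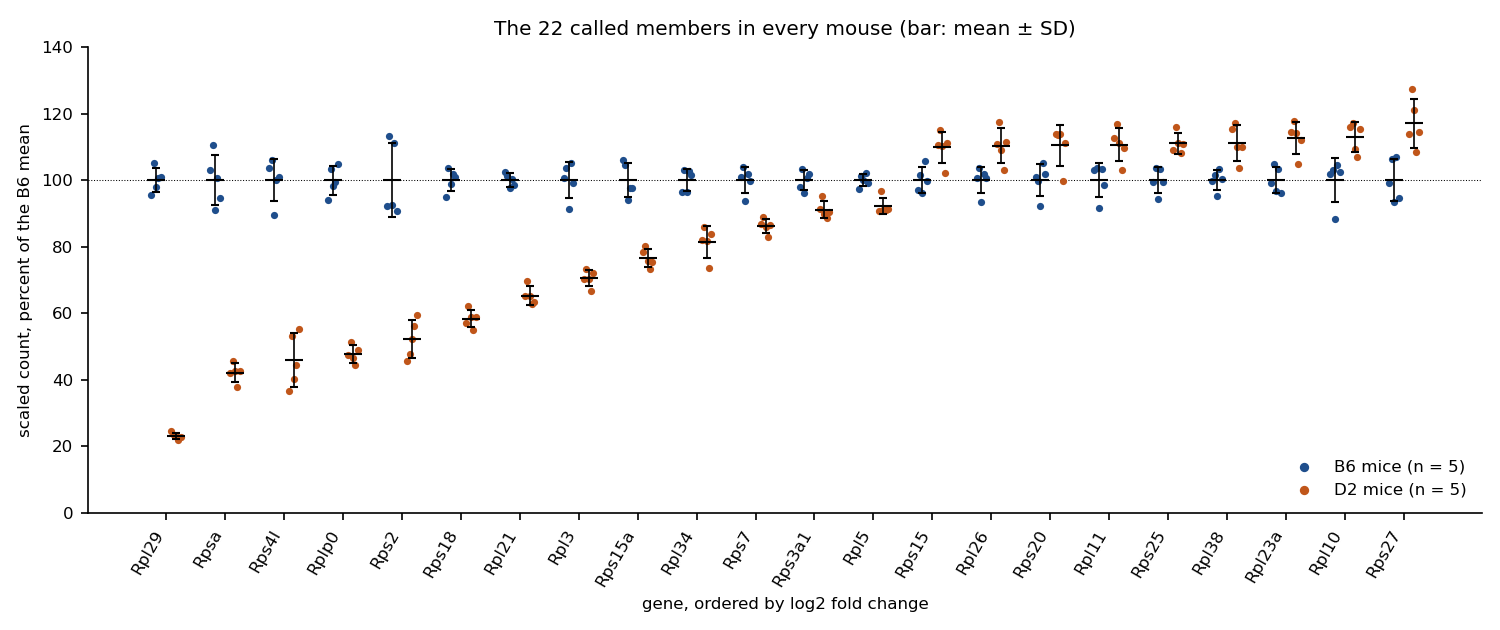
Scaled count of the 22 called members in each mouse as a percent of the B6 mean of the gene (y axis, from 0), genes ordered by log2 fold change (x axis), with blue points for B6, orange for D2 and bars for mean ± SD (n = 5). Rpl29 sits at 23.1% of the B6 mean in D2 and Rpsa at 42.1%, with a gap between strains, while the points of Rps15, Rpl26, Rps20 and Rpl11 overlap.

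The 9 higher members were Rps27, Rpl10, Rpl23a, Rpl38, Rps25, Rpl11, Rps20, Rpl26 and Rps15. Rps27, a zinc-binding protein of the small subunit, had the largest increase of these, with 10504, 11262, 9913, 11324 and 10016 in B6 and 12062, 13515, 12841, 11482 and 12135 in D2. Its log2 fold change was 0.23 (SE 0.0522, adjusted p = 0.00833, edgeR), and the lowest D2 mouse lay just above the highest B6 mouse. Rpl10, which joins the large subunit late in its assembly, held 18429, 18647, 16010.1, 18965 and 18566 in B6 and 21037, 21247, 19842, 19391 and 20928 in D2, a log2 fold change of 0.18 (SE 0.0481, adjusted p = 0.0216, edgeR). B6 replicate 3 was below the other mice of its strain for Rpl10. Rpl23a and Rpl26, at the mouth of the tunnel through which the new protein leaves, were both higher, by 0.17 and 0.14 on the log2 scale. They were the 2 called genes of the 8 in the exit tunnel list (25%), and none of the other 6 passed the test in either direction. The shares over all rows were 8.5% higher and 9.83% lower. In the tunnel list 7 genes had a positive log2 fold change (median 0.10), beside 31 of the 52 Rpl symbols (median 0.015). Rps25, needed by some viral internal ribosome entry sites, rose by 0.15 and Rpl38, known for its role in patterning of the body axis, by 0.15. Of the 9 higher genes, Rpl10, Rpl11, Rpl26, Rps15 and Rps20 lost their call when some single mice were left out.

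Rpl4, Rpl3, Rplp1, Rpsa and Rpl9 had the highest mean counts over both strains, and of these Rpl4 (0.05, adjusted p = 0.33), Rplp1 (−0.03, adjusted p = 0.782) and Rpl9 (0.03, adjusted p = 0.798) did not pass edgeR's test. Among the 5 lowest was Rpl24, at 44.5 ± 5.45 (SD, n = 5) scaled counts in B6, against 42.8 ± 12.9 (SD, n = 5) in D2. The exons of Rpl24 share 137 bases with Gm28037 on the same strand, and those of Rpl36al share 332 bases with Gm49383, so that the count of reads that fit both genes depends on a setting that is not stated. The same holds for Rps10, which shares 172 bases with Gm49804, and Rpl13a, which shares 123 with Gm45713. In B6 these 2 genes held 276.7 ± 29.5 (SD, n = 5) and 1323 ± 72.8 (SD, n = 5) scaled counts. Of Rpl24 and its copies, 93.4% ± 0.78 (SD, n = 5) of the scaled counts lay on the copies in B6, against 93.6% ± 1.8 (SD, n = 5) in D2, and of Rpl36al and its copies 44.6% ± 3.2 (SD, n = 5) and 44.7% ± 7.69 (SD, n = 5).

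The members together held 1.02% ± 0.0508 (SD, n = 5) of all counts in B6, against 0.99% ± 0.0391 (SD, n = 5) in D2, and the ranges overlapped. Without the 13 lower genes the shares were 0.799% ± 0.039 (SD, n = 5) and 0.846% ± 0.0346 (SD, n = 5). Within a strain the members moved together from mouse to mouse. Of the 79 members with a mean above 1000 scaled counts, D2 replicate 2 had the highest level of its strain for 62 and D2 replicate 4 the lowest for 68. In B6, replicate 3 was the lowest for 56, and replicates 2 and 4 were the highest for 36 and 31. The median member stood 0.078 above the mean of its strain in D2 replicate 2 and fell by 0.084 below it in D2 replicate 4, on the log2 scale. These 2 mice of 1 strain thus stood further apart than the strains did for the smallest called changes. Of short protein-coding genes that are no members (under 1000 bases of transcript, mean of at least 100), the median log2 fold change was −0.016, and that of members of the same length 0.054.

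**Figure D3:**
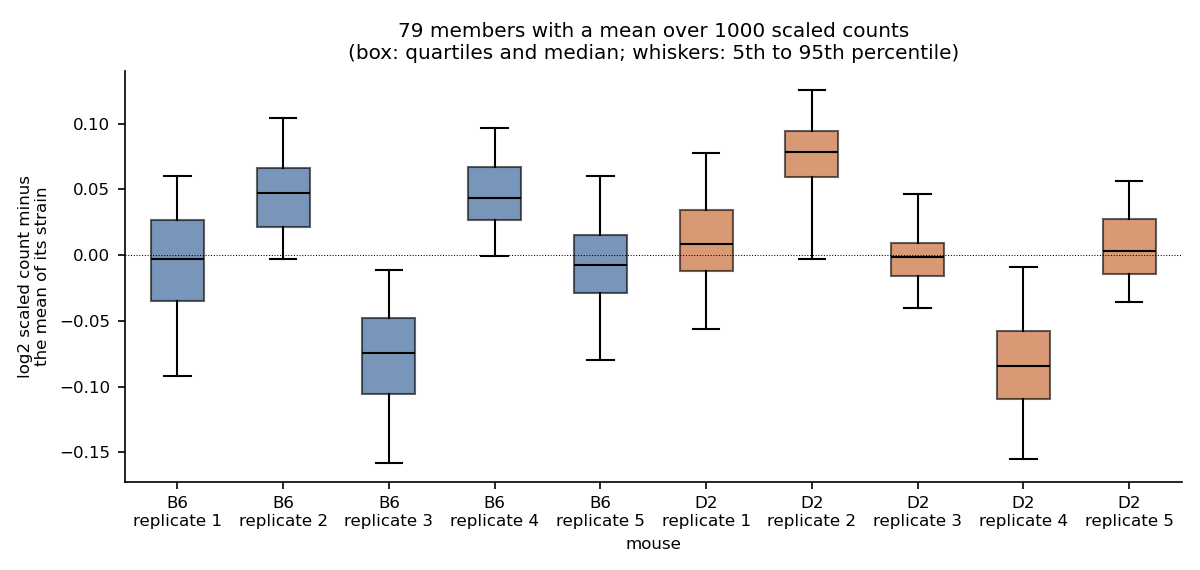
Log2 scaled count of the 79 members with a mean above 1000, minus the mean of the strain (y axis), for each mouse (x axis), with boxes for the quartiles and median and whiskers for the 5th to 95th percentile. In D2 replicate 2, 74 of the 79 members lie above 0, whereas in D2 replicate 4 and in B6 replicate 3 only 4 do.

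The summed level of the copies was higher in D2, and a few copies of the lower members held most of it. Of the 441 copies, 42 (9.52%) were higher and 22 (4.99%) lower in D2, beside 11.4% and 4.12% of the 2984 rows of a pseudogene biotype, so that the share of copies called higher was not above that of pseudogenes at large. Their summed scaled count went from 10319 ± 582 (SD, n = 5) in B6 to 33251 ± 1044 (SD, n = 5) in D2. Of the 13 lower members, 12 had a copy and 11 had a copy that was higher in D2, with 25 of their 134 copies higher and 11 lower, and 5 had a lower copy. Of the 9 higher members, 3 had a copy that was higher in D2 (3 of their 44 copies), and of the 66 not called, 8 did (14 of 263 copies). The lower members had a median of 6 copies, the higher ones 4 and those not called 3. A member with more copies has more chances of a higher one. Without B6 replicate 4, 38 copies were called higher and 20 lower.

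Rpsa-ps10 is a processed pseudogene of Rpsa at chromosome 3, 149778295 to 149779179, which matched Rpsa at 99.3%. It held 139.9, 55.8, 61.9, 537 and 101 scaled counts in the B6 mice and 7377, 7747, 7086, 7053 and 7611 in the D2 mice. B6 replicate 4 was the highest of the B6 mice. The share of Rpsa and its copies that lay on the copies was 0.683% ± 0.534 (SD, n = 5) in B6 (0.449% without B6 replicate 4), against 32.5% ± 1.01 (SD, n = 5) in D2. Such a share also rises when the member falls and its copies gain nothing. For Rpl21 it went from 1.70% in B6 to 2.18% in D2, while the copies went from 364 ± 48.1 (SD, n = 5) to 305 ± 35.4 (SD, n = 5) scaled counts.

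Gm8730, a processed pseudogene of Rplp0 on chromosome 8, held 45.4, 13.4, 43.6, 225 and 30.9 in B6 and 3521, 3882, 3508, 3291 and 3647 in D2. The share on copies of Rplp0 was 0.933% ± 0.637 (SD, n = 5) in B6 (0.651% without B6 replicate 4), against 38.3% ± 0.247 (SD, n = 5) in D2, the highest of any of the 13 lower members. Gm8210, a copy of Rpl29 on chromosome 1, held 6.75, 1.03, 1.15, 38.5 and 7.2 in B6 and 605, 601, 598, 616 and 583 in D2. Of Rpl29 and its copies, 3.86% ± 0.203 (SD, n = 5) lay on copies in B6, against 27.7% ± 0.913 (SD, n = 5) in D2. The copies of Rpl29 together went from 406 ± 12.4 (SD, n = 5) to 896 ± 12.6 (SD, n = 5) scaled counts.

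Rps18-ps6, which GENCODE annotates as protein-coding, held 23.2, 2.07, 13.8, 109 and 15.4 in B6 and 1648, 1817, 1721, 1582 and 1756 in D2, and the share on copies of Rps18 went from 1.46% ± 0.269 (SD, n = 5) to 24.3% ± 0.197 (SD, n = 5). Rpl3-ps1 on chromosome X rose from 466 ± 97.3 (SD, n = 5) to 3890.2 ± 82.5 (SD, n = 5) and Rps7-ps3, also on X, from 174 ± 48.7 (SD, n = 5) to 2055 ± 50.5 (SD, n = 5). Rps15a-ps7 rose from 24.4 ± 18.7 (SD, n = 5) to 979 ± 84.8 (SD, n = 5) and Rps3a2, a copy of Rps3a1, from 48.1 ± 9.75 (SD, n = 5) to 827 ± 40.9 (SD, n = 5). Without B6 replicate 4, the B6 mean was 423 for Rpl3-ps1, 155 for Rps7-ps3, 16.1 for Rps15a-ps7, 43.8 for Rps3a2 and 13.6 for Rps18-ps6, and the share on copies of Rps18 was 1.34%. These 4 and the 4 before them were among the 11 copies that were called higher and had a D2 mean of at least 500. The strains did not overlap for any of the 11.

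**Figure D4:**
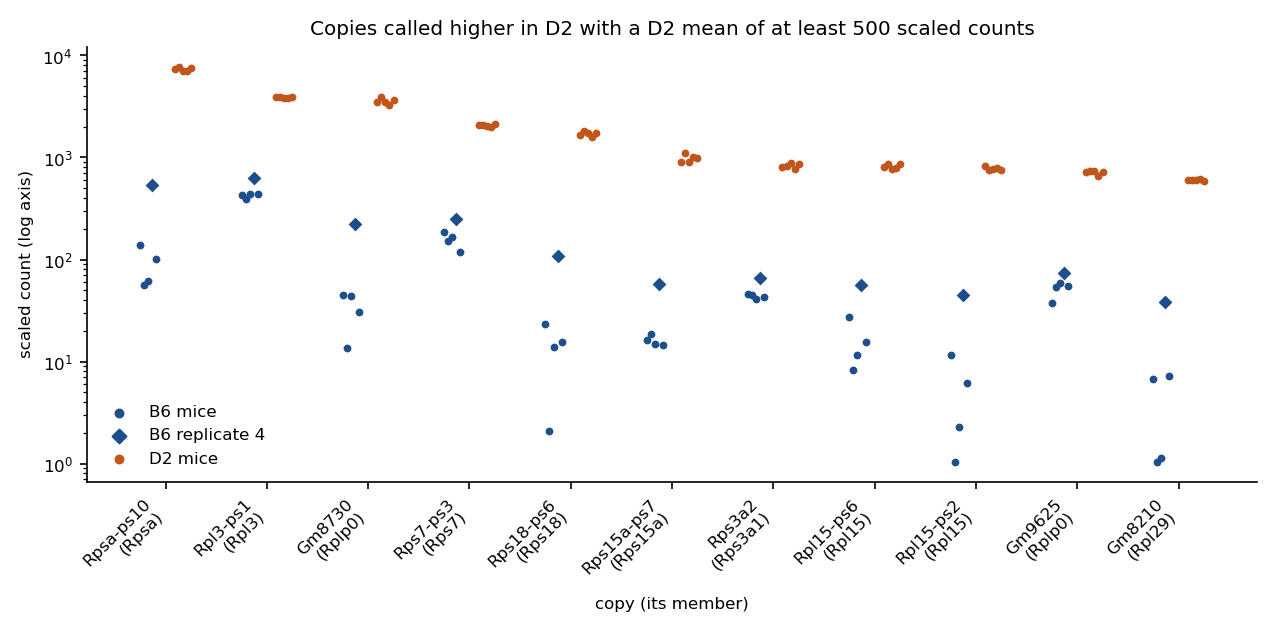
Scaled count (y axis, log axis) in each mouse of the 11 copies called higher in D2 with a D2 mean of at least 500 scaled counts, each labelled with its member (x axis), with blue for B6, a blue diamond for B6 replicate 4 and orange for D2. The D2 mice lie near 7375 for Rpsa-ps10 and near 600.5 for Gm8210, far above the B6 mice, among which B6 replicate 4 is the highest for all 11.

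The counts that the copies gained covered very different parts of what the members lost. For Rps7 the copies gained 84.6% of the scaled counts that the member lost, for Rplp0 54.8%, for Rps3a1 44.6%, for Rps18 41.6%, for Rps15a 41.3%, for Rpsa 33.8% and for Rpl3 25.7%. For Rpl29 they gained 6.3%, for Rpl34 3.08%, for Rpl5 1.54% and for Rps2 0.81%, and for Rpl21 the copies lost counts too. When the counts of all copies were added to their member and the fit was repeated, the log2 fold change was −1.71 for Rpl29, −0.92 for Rps2, −0.70 for Rpsa, −0.62 for Rpl21, −0.40 for Rps18 and −0.39 for Rplp0, all still called lower by edgeR (largest adjusted p of these, 3e-05). Rps7 (−0.04, adjusted p = 0.517, edgeR) and Rps3a1 (−0.08, adjusted p = 0.102, edgeR) no longer passed, and neither did Rps20 among the higher genes (0.14, adjusted p = 0.0516, edgeR). The refit called 11 members lower and 9 higher. Since Rps20 dropped out, the 9 include a member that the main fit did not call higher. How reads that fit several places were counted is not stated, and the part of read placement in these differences was not tested.

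Copies were also higher beside members that did not pass the test. Rpl15, a large subunit protein, was not called, at 11656 ± 184 (SD, n = 5) in B6, against 11429.7 ± 109 (SD, n = 5) in D2, while its copies Rpl15-ps6 and Rpl15-ps2 went from 23.8 ± 19.7 (SD, n = 5) to 819.9 ± 40.5 (SD, n = 5) and from 13.2 ± 18.2 (SD, n = 5) to 779 ± 27 (SD, n = 5). Without B6 replicate 4 the B6 means of these copies were 15.5 and 5.27 (n = 4). Of Rpl15 and its copies, 2.13% ± 0.283 (SD, n = 5) lay on copies in B6, against 14.3% ± 0.136 (SD, n = 5) in D2. Rpl15 and its copies together held 11909 ± 182 (SD, n = 5) scaled counts in B6 and 13336 ± 141 (SD, n = 5) in D2. Rpl14-ps1 rose from 97.5 ± 8.6 (SD, n = 5) to 399.6 ± 19 (SD, n = 5), while Rpl14 itself had a log2 fold change of −0.02.

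**Figure D5:**
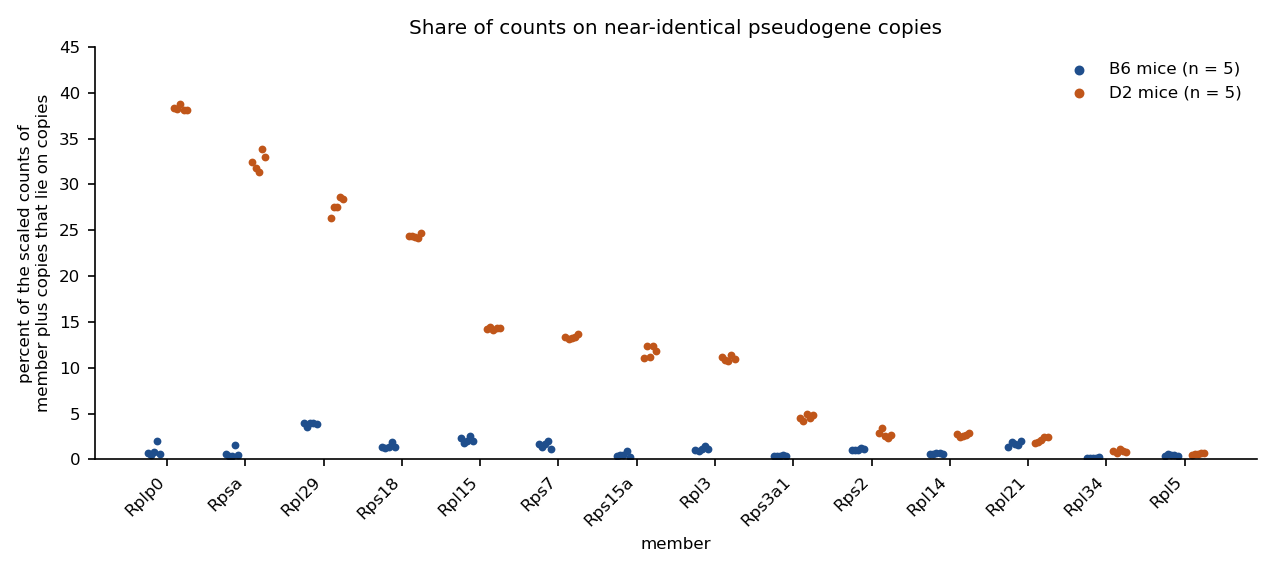
Percent of the scaled counts of a member plus its copies that lie on the copies (y axis, from 0), for the 12 lower members with copies and for Rpl15 and Rpl14 (x axis), with a point for each B6 (blue) and D2 (orange) mouse. D2 mice reach 38.3% on average for Rplp0 and 32.5% for Rpsa, whereas Rpl5 stays under 1% in every mouse. The percent also rises where the member falls and the copies gain nothing.

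Fau, a ribosomal protein gene that the symbol rule leaves out, which makes a ubiquitin-like protein fused to the small subunit protein of the same gene, held 10229, 10419, 9672, 11049 and 10773 in B6 and 12777, 12838, 12268, 12088 and 13127 in D2, a log2 fold change of 0.28 (SE 0.0401, adjusted p = 0.0003, edgeR). The 77 mitochondrial ribosomal protein genes, which build the separate ribosome of the mitochondrion, had 3 higher and 11 lower in D2 with a median log2 fold change of 0.010. Of these 77, 18.2% were called in either direction, while over all rows 8.5% were higher and 9.83% lower. Among the mitochondrial ribosomal protein genes, Mrpl55 fell by 0.76 and Mrpl35 by 0.53. Among the 145 rows with a ribosomal protein pseudogene symbol, 140 of which were copies by the definition above, 20 were higher and 4 lower. That is 16.6% called in either direction, beside 11.4% higher and 4.12% lower over the 2984 rows of a pseudogene biotype. Rpl15-ps2, named above, and Rpl27-ps1 had the largest called changes. Rpl27-ps1 held 11.6, 10.3, 17.2, 6.41 and 14.4 in B6 and no counts in any D2 mouse, so that no fold is given for it.

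Genes that assemble, regulate or serve the ribosome were called in both directions. Over all rows, 8.5% were called higher and 9.83% lower. The share called in either direction was 17.5% for the assembly factors and 26.7% for the RNA polymerase I list. For the other lists here and in the next paragraph, of 4 to 16 genes each, it lay between 7.69% and 33.3%. Of 40 ribosome assembly factors, 3 were higher and 4 lower, with Rrs1, which acts with the 5S RNA complex, at −0.29 (SE 0.0467, adjusted p = 0.00071, edgeR) and Rrp9, a protein of the U3 particle, at −0.17 (SE 0.0419, adjusted p = 0.0116, edgeR). Of 4 chaperones of single ribosomal proteins, Tsr2, the chaperone of Rps26, was the 1 called, at 0.23 (SE 0.0349, adjusted p = 0.00046, edgeR). Of 15 genes of RNA polymerase I, which transcribes ribosomal RNA, and its factors, 1 was higher and 3 were lower. Polr1a, its largest subunit, held 6577, 6210.1, 5912, 6155 and 5873 in B6 and 4463, 4364, 4329.7, 4314 and 4374 in D2 (−0.49, SE 0.0354, adjusted p = 5.4e-07, edgeR), without overlap. Polr1d, a subunit shared with RNA polymerase III, had a log2 fold change of −0.38 (SE 0.0356, adjusted p = 6.5e-06, edgeR).

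Of 10 translation elongation factors, Eef1g was higher (0.13, SE 0.0366, adjusted p = 0.0225, edgeR) and Eef2k, the kinase that inhibits Eef2, was lower (−0.14, SE 0.0378, adjusted p = 0.024, edgeR). Of 12 other genes whose messages carry a TOP tract, 3 were higher and 1 was lower, with Naca at 0.15 (SE 0.0337, adjusted p = 0.0069, edgeR) and Nap1l1 at −0.18 (SE 0.0357, adjusted p = 0.00306, edgeR). Of 16 genes of mTORC1 and the control of TOP messages, 3 were higher and 1 was lower. Tsc2, an inhibitor of mTORC1, had a log2 fold change of −0.24 (SE 0.0353, adjusted p = 0.00029, edgeR), and Tial1, an RNA-binding protein that holds back TOP messages under stress, of 0.22 (SE 0.0582, adjusted p = 0.0166, edgeR). Of 13 genes of ribosome rescue and quality control, Hbs1l was the 1 called (0.10, SE 0.0293, adjusted p = 0.0339, edgeR). The calls of Eef1g, Eef2k and Hbs1l were lost when some mice were left out and under other alternatives, with adjusted p up to 0.0806, 0.0971 and 0.119 (edgeR). The median log2 fold changes of these lists lay between −0.035 (RNA polymerase I) and 0.068 (chaperones), beside 0.0036 over all rows.

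A sequence feature that the rule did not use is the TOP tract. In the RefSeq table of gene starts (GRCm38.p6), 66 members were matched by symbol. Read on the strand of the gene, the tract was a C followed by at least 4 C or T bases. It had to begin within 5 bases of any annotated start of the gene, so a gene with more starts has more chances. Such a tract was found for 31 of the 66 members (47.0%). Of all 27025 genes in that table, 21.2% had such a tract. The tract stood at a start of 4 of 9 matched lower members and 2 of 7 matched higher members. No factor or control is inferred from these letters.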

How the data were processed

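RNA from the NAc of 5 B6 and 5 D2 mice was sequenced as 1 poly-A library per mouse, so that replicates are mice. The authors deposited unnormalised counts for each gene. They trimmed the reads, aligned those of both strains to GRCm39 with STAR 2.7.10b, handled alignments with SAMtools 1.6, counted with featureCounts and dropped genes with a median of 0 (the lowest median left was 0.5). The strand and multi-mapping settings and the version of featureCounts are not given in the sources used here. Totals ran from 96977262 to 116776714 counts, and their number limits precision for genes with few counts.

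All 29883 rows were fitted with edgeR 4.0.16 (R 4.3.3, TMM, quasi-likelihood, no covariate), with Benjamini-Hochberg adjustment and a threshold of 0.05. The standard error is the absolute log2 fold change over the square root of F. Simulated counts of 29883 genes had the same dispersion for every gene and no differences among replicates beyond depth and random spread. On these, edgeR recovered 189 of 200 genes given a log2 change of 1 and made 8 false calls. The real libraries held the groups of replicates described above, and most called members changed by less than that. The simulation therefore gives no power or false call rate for the real comparison. The members and lists were chosen with earlier results of these data known. Named genes were the called members among the 12 largest changes in each direction, the 5 members with the highest and the 5 with the lowest mean, role lists of up to 4 genes, the paralogs, and the 2 largest called changes of each pathway list. Rpl14, Rpl15 and the copies were named after their values were seen.

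Symbols, positions and copies come from GENCODE on GRCm39, with copies found by BLAST+ 2.17.0, and the gene starts from RefSeq. Every pair of libraries within a strain differed by more than sampling noise. No label pairs same-numbered mice, and the correlations of their deviations ran from −0.40 to 0.37. Whether they shared a batch was not tested. Alternatives were DESeq2 1.42.0, other scalings and filters, added copies, a replicate block and leaving out each mouse. Some genes of the lists are not reported here.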

Additional observations from a re-analysis of the deposited data

Results flagged for a closer look

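In 17 of 138 groups of 5 mice, 1 mouse lay far from the other 4 of its strain by Dixon's criterion, which chance meets in about 1 group of 20. Of the 17, 9 were in B6 replicate 4, the library that also held more of the rows nearly absent from the other B6 mice. The summed scaled count of the copies was 11329 in B6 replicate 4, against 9918 to 10210.3 in the other B6 mice. Rpsa-ps10 was at 537 there (55.8 to 139.9 in the others), Rpl3-ps1 at 636 (391 to 439), Gm8730 at 225 (13.4 to 45.4) and Rps18-ps6 at 109 (2.07 to 23.2). Rps3a2 was at 65.2 in the same mouse (41.3 to 46.3), Rps15a-ps7 at 57.7 (14.4 to 18.6), Rpl15-ps2 at 44.9 (1.03 to 11.6) and Gm8210 at 38.5 (1.03 to 7.2). Each of these levels was still far below the lowest D2 mouse.

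Among the ribosomal protein genes, B6 replicate 3 was low for Rpl10 at 16010.1 (18429 to 18965 in the other B6 mice), for Rpl12 at 12897 (14379 to 14959), for Rpl26 at 14008 (15116 to 15552) and for Rpl9 at 20239.6 (22923 to 23409). Without that mouse Rpl26 was no longer called, Rpl10 kept its call and Rpl12 was called lower (−0.14, adjusted p = 0.023, edgeR). In D2, replicate 2 was high for Rpl5 at 18249 (17138 to 17265 in the other D2 mice), and replicate 4 was low for Rps20 at 9045 (10087 to 10335). Outside the members, Tsr2 was low at 7784 in D2 replicate 2 (8137 to 8240.4 in the others), and Gm9625, a copy of Rplp0, was low at 652 in D2 replicate 4 (726 to 742).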

How the results depend on the processing

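The count of members lower in D2 stayed between 11 and 14 under every alternative run, whereas the count higher went from 9 to 3 at an adjusted p of 0.01, ranged from 4 to 14 when 1 mouse was left out (14 without D2 replicate 4), was 4 without B6 replicates 3 and 5, and lay between 6 and 12 under the other alternatives. Members with every D2 mouse above every B6 mouse numbered 4 to 19 without 1 mouse. With a replicate block, 6 members were higher and 13 lower, and 33 copies were higher and 18 lower. No label pairs the mice by number. The deviations of same-numbered mice had correlations from −0.40 to 0.37, and 2 of 5 B6 mice correlated best with their own number. Whether same-numbered mice shared a batch was not tested. The 42 copies called higher became 12 where at least 10 counts were required in every mouse and 4 over rows with a mean of at least 1000 scaled counts (chosen after seeing the data), since these filters leave fewer copies to test. The 22 copies called lower became 8 and 0 under the same filters and 14 at an adjusted p of 0.01. Without 1 mouse, 38 to 40 copies were higher and 18 to 22 lower.

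Of the 22 called members, 13 kept their call at 0.05 under every alternative and none changed direction. Rps7, Rps3a1 and Rps20 lost their call when copies were added to them, and Rpl38, Rpl11, Rpl26, Rps15 and Rps20 without B6 replicates 3 and 5. With total counts as the scaling, Rps3a1 and Rpl5 lost theirs (for Rpl5, adjusted p = 0.099, edgeR). Directions that turned belonged to genes that did not pass the test. With total counts, Rpl7l1 was at 0.0088, Rplp1 at 0.0016 and Rps19bp1 at 0.018 on the log2 scale. Without 1 mouse, the log2 fold change ran from −0.17 to 0.12 for Rpl24, from −0.16 to 0.67 for Rpl39l, from −0.017 to 0.052 for Rpl9, from −0.056 to 0.0084 for Rplp1, from −0.036 to 0.0060 for Rps19bp1 and from −0.0086 to 0.036 for Rps27l. Without B6 replicates 3 and 5, Rpl22l1 was at −0.022, Rpl24 at 0.038 and Rpl9 at −0.017. The causes were not tested. Depth limits the genes with few counts, such as Rpl39l and Rps23rg1.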
